A study of Mus musculus with 11 samples.

Results

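Adenylyl cyclases are the enzymes that turn ATP into cyclic AMP (cAMP). The 9 membrane-bound members of the family, Adcy1 to Adcy9, were examined in the aorta of old mice with and without a nitrate supplement. They were found by their gene symbols among the non-control probes of the arrays, which carry 36413 names of genes or transcripts. The 9 genes were covered by 11 of the 55681 probes, 3 of them for Adcy5 and 1 for each of the other genes. Of these 11 probes, 9 were detected, and they represent 7 genes.

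All mice were male C57BL/6 animals of 20 months. The old nitrate group (5 arrays) had drunk water with sodium nitrate at 1 g/L for a period of 8 weeks. The old control group (6 arrays) is labelled only as control and as a repeat analysis of samples from earlier work, while the methods of the study name an equal concentration of sodium chloride. The sources do not say whether the mice of both groups were kept and processed together, and the part of cohort or time in each difference between the groups was not tested. RNA was taken from the whole descending aorta after removal of the surrounding fat and measured on one-colour Agilent 60-base arrays, so no single cell type was sampled. The study asked which genes differ in the old aorta after chronic nitrate intake.

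Membrane-bound cyclases receive signals from G protein-coupled receptors. The stimulatory subunit Gs activates them and the inhibitory subunits of the Gi family restrain several of them. The isoforms differ in what else they respond to. Adcy1, Adcy3 and Adcy8 can be stimulated by calcium with calmodulin, Adcy2, Adcy4 and Adcy7 by the beta-gamma subunits of G proteins, Adcy5 and Adcy6 are inhibited by calcium, and Adcy9 is little affected by the plant compound forskolin. In arteries cAMP acts through protein kinase A and EPAC, relaxes smooth muscle and tightens the endothelial barrier, and phosphodiesterases break it down.

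The results turn on the Adcy7 probe and the 3 Adcy5 probes. The Adcy7 probe lies on the plus strand at chr8:90853657-90853716 of mm9 and matches 4 RefSeq transcripts of the gene. The Adcy5 probes lie on the plus strand within 570 bases of each other, at chr16:35304041-35304100 (probe a), chr16:35304398-35304457 (probe b) and chr16:35304551-35304610 (probe c), and all target 1 transcript. The longest run that any of the 11 probes shared with a probe of another cyclase gene was 9 bases. The first 30 of the 60 bases of these 4 probes are given as designed, 5′ to 3′, to show that the probes for Adcy5 are separate stretches.
Adcy7: acacttcctgacaaagtgattgttactgtg
Adcy5 probe a: atgtttccccttggcagaagactctgctag
Adcy5 probe b: gcaagaggacaccaggcaaggagcagtggc
Adcy5 probe c: ggaggtgggaaccccaacttgtctttttgt

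Values are log2 processed signals after quantile normalisation, and a difference is the mean of the nitrate arrays minus the mean of the control arrays. A probe was called at an unadjusted limma P value under 0.05 with a fold change above 1.2, the limits used by the study. With these limits 9% of all 23632 detected probes were called, and 4.16% were called higher in nitrate treated mice. Without the fold limit 14.4% had a P value under 0.05, and 0.0127% passed at an adjusted P value under 0.05. All values of 1 group lay on one side of the other group in 2.75% of detected probes. Of the 9 detected cyclase probes 1 was called and 1 had no overlap between the groups, in both cases the probe of Adcy7. No cyclase probe passed the adjusted threshold. Signal levels were not compared between genes, since each probe has its own response.

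The 75th percentile of the signal was 216 to 289 in the nitrate group and 213 to 282 in the control group, and no spot was saturated. The number of probes found and well above background was 24864 to 26904 on the nitrate arrays and 24760 (control 1) to 28655 (control 5) on the controls. Correlations between arrays were 0.975 to 0.989. Each of the 3 slides held both groups. All control arrays stood in the same column of the slides, where no nitrate array stood, so slide column and treatment cannot be told apart. Whether each array is a separate mouse is stated only by the methods of the study.

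Adcy7 was higher in the aorta of nitrate treated mice. This isoform is known from immune cells and is responsive to beta-gamma subunits. The nitrate arrays 1 to 5 gave 11.37, 11.56, 11.23, 11.34 and 11.38. The control arrays 1 to 6 gave 10.46, 10.81, 11.07, 10.99, 11.01 and 10.87. The lowest nitrate array therefore lay above the highest control array, and control 1 was the lowest of all.

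The mean Adcy7 signal was 11.38 ± 0.12 (SD, n = 5) with nitrate and 10.87 ± 0.22 (SD, n = 6) in controls. The difference was 0.51 ± 0.11 (SE) on the log2 scale, a 1.42-fold higher signal with a 95% interval of 1.21 to 1.67. The limma P value was 0.000559 and its Benjamini-Hochberg adjusted value, taken over every detected probe, was 0.118. An exact permutation test (two-sided) returned p = 0.00216, the smallest that 462 divisions of the 11 arrays allow. Adcy7 thus met the limits of the study and missed the adjusted threshold.

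Within slides the Adcy7 difference had 1 direction, and the groups did not overlap on any slide. Both follow from the lack of overlap over all arrays and add nothing to it. The difference was 0.83 on slide 1 (2 nitrate and 2 control arrays), 0.29 on slide 2 (1 and 2 arrays) and 0.32 on slide 3 (2 and 2 arrays). Slide 1 holds control 1. Without that array the difference over all slides was 0.42 ± 0.08 (SE), with a limma P value of 0.000209. The within-slide values have no test of their own.

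**Figure D1:**
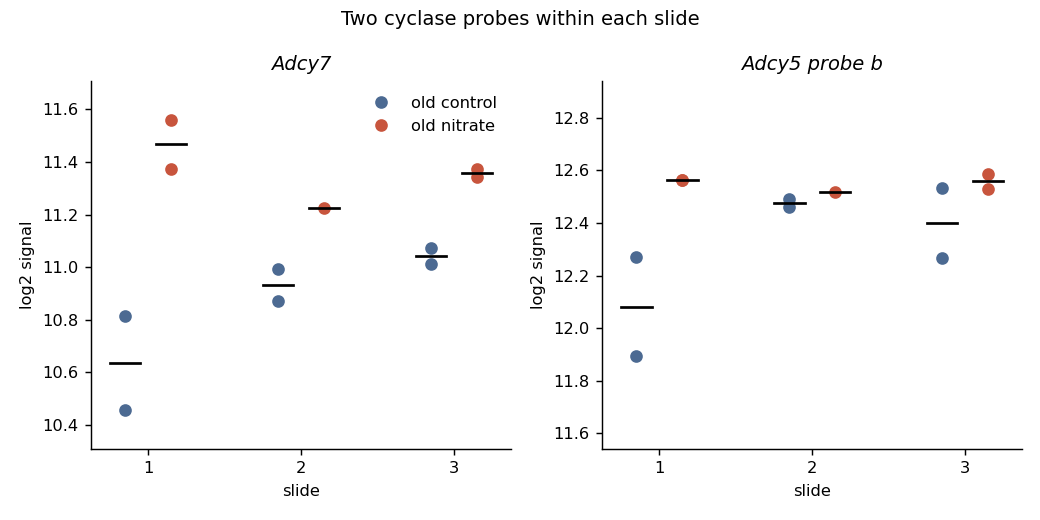
Log2 signal of Adcy7 (left) and of Adcy5 probe b (right) on each slide, with 1 point per array (blue control, red nitrate; the 2 nitrate points of Adcy5 on slide 1 coincide) and black bars for the group means of a slide. The nitrate points of Adcy7 lie above the control points on all 3 slides, by 0.83, 0.29 and 0.32, while the Adcy5 gap shrinks from 0.48 on slide 1 to 0.04 on slide 2.

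Adcy5, a calcium-inhibited isoform prominent in heart and vessel wall, had higher means with nitrate on all 3 probes, but none of them was called with the main processing. On probe b, the brightest, the nitrate arrays gave 12.56, 12.57, 12.52, 12.59 and 12.53, and the control arrays gave 11.89, 12.27, 12.27, 12.46, 12.53 and 12.49. The nitrate arrays lay close together at the upper end of the controls, and control 5 reached into their range. The difference was 0.23 ± 0.11 (SE), a 1.18-fold higher signal that fell short of the fold limit, with a limma P value of 0.0464, an adjusted P value of 0.34 and an exact permutation p of 0.0368.

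Probe c of Adcy5 gave 11.001, 10.93, 10.95, 10.96 and 10.85 with nitrate and 10.11, 10.88, 10.60, 10.88, 10.75 and 10.78 in controls. Here controls 2 and 4 overlapped the nitrate range and control 1 stood far below the rest. The difference was 0.27 ± 0.13 (SE) with a limma P value of 0.0507 and an exact permutation p of 0.0238. Probe a gave 12.19, 12.06, 12.11, 11.91 and 12.00 with nitrate and 11.50, 12.08, 11.79, 12.07, 12.05 and 12.14 in controls. On this probe the groups overlapped widely, and the difference was 0.12 ± 0.11 (SE) with a limma P value of 0.331.

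Control 1 was the lowest array on each Adcy5 probe. Without it the differences of probes a, b and c were 0.03, 0.15 and 0.16, with limma P values of 0.735, 0.0516 and 0.0367, and none passed the fold limit. Probe b differed by 0.48 within slide 1, by 0.04 within slide 2 and by 0.16 within slide 3. The probes of 1 transcript thus shared a direction and differed in size, and the size was smaller on each of them without 1 control array. The call for Adcy5 also moved with the processing. Probe c passed both limits under 75th percentile scaling (0.28), an offset of 16 (0.27), a trended robust prior (0.27) or a slide block (0.29), and without control 2 (0.32) or control 4 (0.32). Probe b passed with the replicate block (0.27) and without control 5 (0.28) or control 6 (0.27).

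**Figure D2:**
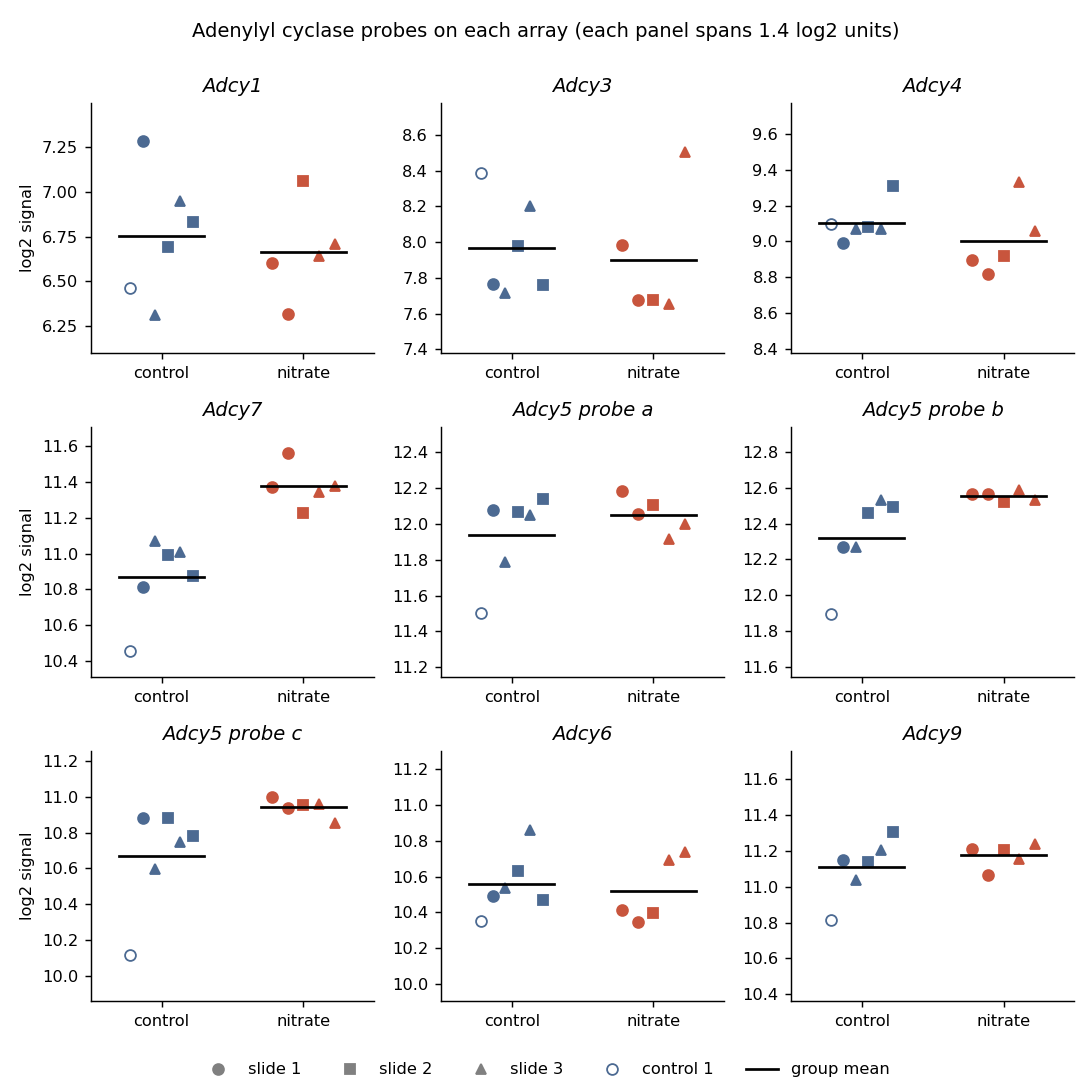
Log2 signal of the 9 detected cyclase probes on each array, in panels that each span 1.4 log2 units. Points are arrays (blue control, red nitrate; circle, square and triangle for slides 1, 2 and 3), the open circle is control 1 and black bars are group means. In the Adcy7 panel alone the 5 nitrate points lie above all 6 control points, and control 1 is the lowest point of Adcy7, Adcy9 and the 3 Adcy5 probes.

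Adcy6, the closest relative of Adcy5 and also inhibited by calcium, gave 10.41, 10.34, 10.40, 10.69 and 10.74 with nitrate and 10.35, 10.49, 10.54, 10.63, 10.86 and 10.47 in controls. The ranges were nearly the same. The difference was −0.04 ± 0.11 (SE), with a 95% interval from −0.27 to 0.19 and a limma P value of 0.708.

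The calcium and calmodulin-stimulated isoforms were not called. Adcy1, best known from the brain, was dim but detected, at 6.60, 6.32, 7.06, 6.64 and 6.71 with nitrate and 6.46, 7.28, 6.31, 6.69, 6.95 and 6.83 in controls. Its difference was −0.09 ± 0.17 (SE), with a limma P value of 0.611. Adcy3, the cyclase of olfactory signalling, gave 7.99, 7.68, 7.68, 7.65 and 8.50 with nitrate and 8.39, 7.76, 7.72, 7.98, 8.20 and 7.76 in controls. Nitrate 5 held the highest value and nitrate 4 the lowest, and the difference was −0.07 ± 0.17 (SE) with a limma P value of 0.703. Adcy8 was well above background on none of the 11 arrays, so no fold is given.

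Among the other isoforms stimulated by beta-gamma subunits, Adcy4 gave 8.90, 8.82, 8.92, 9.33 and 9.06 with nitrate and 9.10, 8.99, 9.07, 9.08, 9.07 and 9.31 in controls. The controls lay close together apart from control 6, and the difference was −0.10 ± 0.10 (SE) with a limma P value of 0.324. The Adcy4 spot was well above background on every array, but it was marked as found on all 5 nitrate arrays and on only 2 of the 6 control arrays, so the probe met the detection rule through the nitrate group. Adcy2 was well above background on 2 of the 6 control arrays and on none of the 5 nitrate arrays. Its control mean of 4.13 did not exceed 4.16, the bound that the dimmest well-measured probes set for the nitrate arrays, so no fold is given.

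Adcy9 gave 11.21, 11.07, 11.21, 11.15 and 11.24 with nitrate and 10.82, 11.15, 11.04, 11.14, 11.21 and 11.31 in controls. Apart from the low control 1 the ranges coincided. The difference was 0.07 ± 0.09 (SE), with a 95% interval from −0.12 to 0.25 and a limma P value of 0.453.

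The 95% intervals bound what the data allow for the uncalled isoforms. The interval reached no further than 0.25 above and 0.12 below for Adcy9 and 0.11 above and 0.31 below for Adcy4, whereas Adcy1 and Adcy3 could differ by up to 0.47 and 0.45 downwards. The intervals of Adcy5 reached to 0.36 above on probe a, 0.46 above on probe b and 0.55 above on probe c. These values do not show that the isoforms were equal in both groups.

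**Figure D3:**
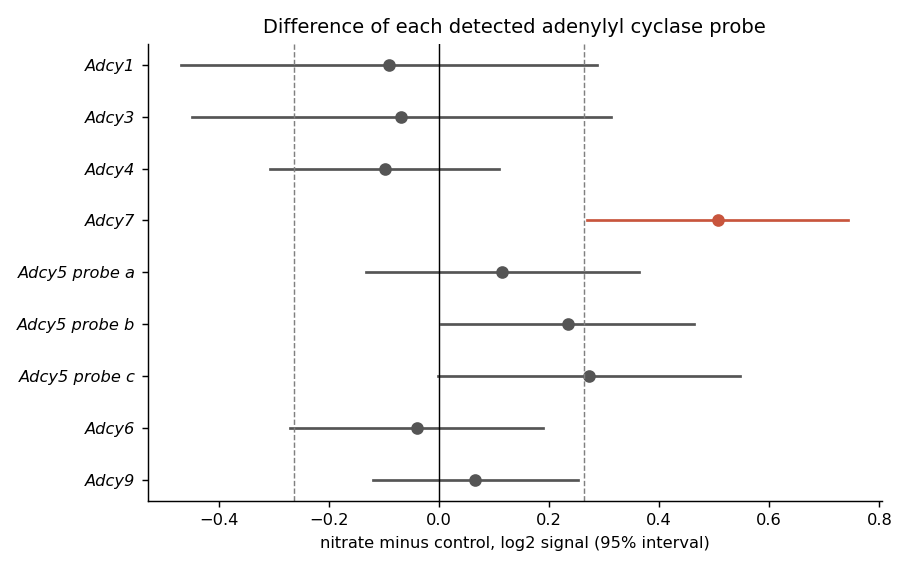
Difference between nitrate and control means (log2 signal) of the 9 detected cyclase probes, as points with 95% intervals from limma. Dashed lines mark a fold change of 1.2 in either direction; the called Adcy7 probe is in red with an interval from 0.27 to 0.74, and of the other 8 intervals 7 lie across 0, and that of Adcy5 probe b lies just above it.

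The isoforms did not vary as 1 block from array to array. After removal of the group means, the 3 Adcy5 probes correlated with each other at r = 0.83 to 0.91 over the 11 arrays, and with Adcy9 at 0.80 to 0.87. Adcy7 correlated with the Adcy5 probes at 0.53 to 0.75 and with Adcy9 at 0.44. Adcy3 had negative correlations with the Adcy5 probes, at −0.31 to −0.50, and no test is attached to any of these values. All these points share the arrays, and control 1 contributes to them.

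Among detected probes with another RefSeq gene symbol, those of Btbd19, Synj2 and Postn had residual signals most like that of Adcy7. Over the 11 arrays each had r = 0.96, with Spearman values of 0.92, 0.90 and 0.93. Synj2 is a phosphoinositide phosphatase and Postn, periostin, is a matrix protein of fibroblasts and injured vessels. Without control 1 these correlations were 0.98, 0.91 and 0.91. For Adcy5 the nearest were Golt1b (r = 0.98), Akap13 (0.97), which anchors protein kinase A, and Pls3 (0.97), an actin-bundling protein. Without control 1 these fell to 0.92, 0.87 and 0.84.

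Further nearest genes were Rnf169, Crtc3 and Pcnt for Adcy9 (r = 0.96, 0.96 and 0.95). Crtc3 is a coactivator of the cAMP-responsive factor CREB. For Adcy6 they were Mgrn1, Sltm and 4933427D14Rik (0.97, 0.95 and 0.95). For Adcy1 they included Ppp1r1b, a phosphatase inhibitor controlled by protein kinase A (0.94), and Nrtn (0.90). For Adcy3 they were Lgr4, Ube2l3 and Dcaf17 (0.89, 0.86 and 0.86), and for Adcy4 Purg, Hey1 and Dohh (0.93, 0.89 and 0.89). Each list was drawn from those of the 23632 detected probes that carry the RefSeq symbol of another gene. The genes are the highest by their most correlated probe, and no test is attached to them. Leaving out the 2 arrays farthest from the median of the member took Ube2l3 to 0.54 and Purg to 0.62.

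Around the cyclases, 96 genes of the cAMP pathway were listed and 74 were detected. Of these 11 were called (14.9%, against 9% of all detected probes), 4 higher and 7 lower with nitrate, and 2 (Adrb3 and Pkig) had no overlap between groups, where 2.75% of all detected probes had none. The median difference was 0.06 over the 74 genes and 0.01 over all detected probes. Without control 1 the median of the 74 genes was 0.03, and without nitrate 1 it was also 0.03.

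Upstream of the enzymes, 2 of 14 detected Gs-coupled receptor genes (14.3%) and 5 of 8 detected Gi-coupled receptor genes (62.5%) were called. The share over all detected probes was 9%. Adrb3, the beta-3 adrenoceptor typical of fat cells, was at 11.50 ± 0.28 (SD, n = 5) with nitrate against 12.31 ± 0.46 (SD, n = 6), and its difference of −0.80 was −0.93 on the second probe. Crhr2, the urocortin receptor, was higher by 0.32. Among the Gi-coupled receptors, Adra2a and Adra2c, which encode alpha-2 adrenoceptors, were higher by 0.53 and 0.41. Ptger3 and Adora1, receptors for prostaglandin E and adenosine that restrain lipolysis in fat cells, differed by −0.87 and −0.52, and S1pr1, the endothelial sphingosine phosphate receptor, by −0.29. The exact permutation p of Adra2a was 0.0541, the highest of these 7 receptors.

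None of the 7 G protein alpha subunit genes was called, and their differences ran from 0.02 to 0.29. Gnas, which encodes Gs, was at 15.18 ± 0.15 (SD, n = 5) against 15.16 ± 0.13 (SD, n = 6). The 3 calmodulin genes were not called, although Calm2 (0.21), named after its value was seen, had a limma P value of 0.0224 and missed only the fold limit. The soluble cyclase Adcy10 was not detected on any of its 3 probes.

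Downstream, Pkig, an inhibitor of the catalytic subunit of protein kinase A, was higher at 12.86 ± 0.08 (SD, n = 5) against 12.47 ± 0.13 (SD, n = 6). Its difference of 0.39 ± 0.08 (SE) had a limma P value of 0.000253, an adjusted P value of 0.0995 and an exact permutation p of 0.00216, and the second Pkig probe gave 0.42. The other 5 genes of catalytic subunits and inhibitors, the 4 regulatory subunit genes, the 10 detected AKAP genes and the 7 detected CREB and coactivator genes were not called. Prkx (−0.24), Prkar1a (−0.24) and Akap8 (0.26), likewise picked out after their values were seen, had limma P values of 0.0289, 0.0142 and 0.04 and also missed only the fold limit. Of 13 detected phosphodiesterase genes 3 were called (23.1%, against 9% of all detected probes called in either direction), all lower. Pde3b, the insulin-regulated enzyme of fat cells, differed by −0.49, Pde2a, which cGMP stimulates, by −0.41 and Pde4d by −0.38. The other 10 had differences between −0.35 and 0.25. Positive differences were seen in 5 of the 13 and negative ones in 8. Pde4a, singled out after its value was seen, had 0.25 with a limma P value of 0.0192 and did not reach the fold limit.

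**Figure D4:**
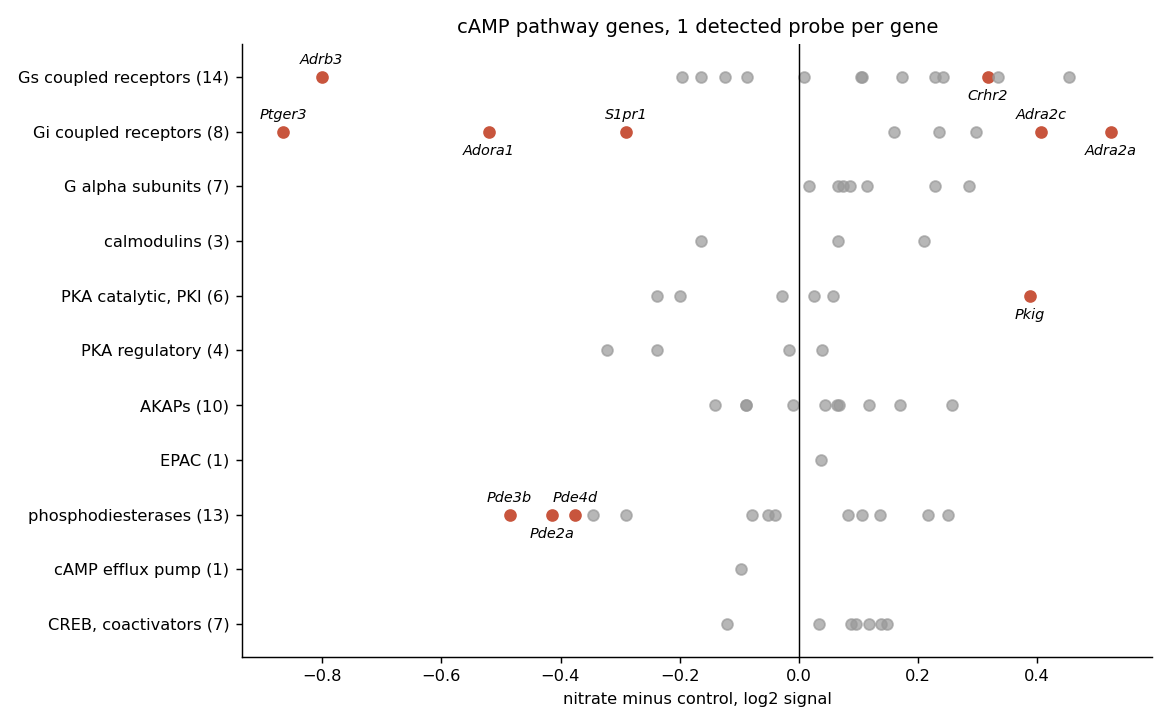
Difference between nitrate and control means (log2 signal) for the 74 detected cAMP pathway genes, by role, with the number of detected genes of each role in brackets. Each point is 1 gene by its brightest detected probe and red points are the 11 called genes; called genes lie on both sides of 0 among the Gi-coupled receptors, and all 3 called phosphodiesterases lie below 0.

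Among the lists of cell type markers, that of adipocytes had the most called genes. Of 14 adipocyte markers 8 were called lower with nitrate (57.1%, against 9% of all detected probes called in either direction) and none higher. The median difference of the 14 was −0.31. Of the 14, 4 (Adipoq, Retn, Pparg and Acvr1c) had no overlap between groups, against 2.75% of all detected probes. The mean level of the 14 was 12.82 to 13.31 on the nitrate arrays and 13.24 to 13.74 on the controls. All 14 were above background on every array. Adipoq differed by −0.49 and Retn by −0.84. Of 8 smooth muscle markers 1, Lmod1, was called higher, and all 8, Acta2 and Myh11 included, were well above background on every array, as the label aorta requires. Of 8 brown adipocyte markers 1, Cidea, was called lower (−0.52), but 4 of the 8 had positive and 4 negative differences (median −0.07). Of 6 detected nerve and Schwann cell markers 1, Mbp, was called lower (−0.46), but 4 had positive and 2 negative differences (median 0.04). None of 8 endothelial, 8 detected leukocyte, 6 fibroblast and 7 detected striated muscle markers was called. Positive differences were seen in all 6 fibroblast markers (median 0.14) and 7 of the 8 smooth muscle markers (median 0.11), of which Smtn had no overlap between groups. The 7 striated muscle markers all had positive differences, with a median of 0.80, and their mean level was 7.95 to 11.72 on the nitrate arrays and 7.40 to 11.33 on the controls. Control 1 had the highest adipocyte (13.74), brown adipocyte (12.72) and nerve (8.51) means of all arrays and the lowest smooth muscle (13.74) and fibroblast (12.30) means. It also had the highest striated muscle mean of the controls, at 11.33 against a control median of 8.13, and their highest leukocyte mean (9.80). The part of these tissue shares in the values of Adcy7, Adcy5 and the pathway genes was not tested. In whole vessel RNA, fewer cells of a type and less RNA per cell cannot be told apart.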

How the data were processed

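RNA of the aorta was measured on one-colour Agilent arrays, 5 of nitrate treated and 6 of control mice. A further nitrate array named in the methods was not analysed here. The authors deposited spot intensities from Feature Extraction 10.7.1.1 (annotation mm9), already background-subtracted and not normalised between arrays. They also deposited a table of log2 values that were quantile normalised and centred on the median of all samples. That table served as an alternative.

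Intensities below 1 were set to 1 before log2 transformation. Control spots and spots with an outlier flag were removed, replicate spots were averaged per probe, and quantile normalisation was run across the 11 arrays. Detection required a spot both found and marked as well above background, on 5 or more arrays in one of the groups. R 4.3.3 and limma 3.58.1 were used (lmFit and eBayes over all detected probes, unadjusted P under 0.05 and fold change above 1.2, Benjamini-Hochberg adjustment beside it). Two-sided exact permutation tests used all 462 divisions of the arrays. The limma procedure was tested on simulated data. The number of arrays limits the precision.

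The genes and lists were chosen with earlier results of these data known. All 9 cyclases, the called pathway genes, Adcy10, Gnas, the phosphodiesterases, the markers and the 3 probes most like each detected cyclase are named by rule, except 1 gene that is not reported here. Each cyclase, pathway or marker gene is represented by its brightest detected probe where no other is named. A gene listed as most like a cyclase is represented by its most correlated probe. Pathway and marker lists were written by hand.

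Alternatives covered scaling, background correction, an offset of 16, detection, flagged spots, the prior variance, slide and replicate blocks and leaving out each array.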

Additional observations from a re-analysis of the deposited data

Results flagged for a closer look

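In 3 of 20 control groups of values tested for a single distant array, and in none of the 20 nitrate groups, the gap of the extreme array exceeded Dixon's critical value, where chance gives about 1 in each set of 20. For Adcy4 control 6 was high, with a gap of 0.662 of the range. For Adcy5 probe c control 1 was low, with a gap of 0.628 of the range. For the alpha-2 adrenoceptor gene Adra2a control 1 was also low, with a gap of 0.647 of the range.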

How the results depend on the processing

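Adcy7 was called under every alternative that was tested, with differences of 0.50 to 0.52 across scaling, background, detection, prior and block settings and 0.42 to 0.55 when single arrays were left out. It differed by 0.832, 0.294 and 0.319 within slides 1, 2 and 3. The number of called cyclase probes was 2 under 75th percentile scaling, the offset of 16, the trended robust prior and the slide block, where the second was a probe of Adcy5, and 1 to 2 when single arrays were left out. With the replicate block, which drops control 6, 2 were called, Adcy7 at 0.507 and Adcy5 at 0.269. Residuals of same-numbered arrays correlated at −0.14 to 0.18, and 1 of 5 nitrate arrays correlated best with its own number. These values come from 5 pairs and cannot decide whether the replicate numbers mark a pairing of the arrays. Probes without overlap numbered 3 under 75th percentile scaling, 2 of them for Adcy5, and 1 to 2 with single arrays left out, and were not counted for the prior and block settings. With single arrays left out, the difference of Adcy1 was −0.19 to 0.02 (0.01533 without control 2), of Adcy3 −0.22 to 0.02 (0.01579 without control 1), of Adcy4 −0.18 to −0.05 (the first without nitrate 4, with a limma P value of 0.0435 and below the fold limit), of Adcy5 0.15 to 0.28, of Adcy9 0.01 to 0.11 (0.0075 without control 1) and of Adcy6 −0.10 to 0.02 (0.002717 without nitrate 2 and 0.02056 without control 5). Within slide 1 the differences were −0.416 for Adcy1 and 0.483 for Adcy5, and the pathway median was 0.15. Within slide 2 they were 0.30 for Adcy1, −0.276 for Adcy4 and 0.0441 for Adcy5, with a pathway median of 0.00857. Within slide 3 Adcy4 differed by 0.127 and the pathway median was 0.00192. The undetected Adcy2 and Adcy8 have values at or near background that give no fold and no order. Those of Adcy2 differed by −0.80 to −0.32 with single arrays left out and by −0.0929 after normexp correction, and those of Adcy8 by −1.19 within slide 1. The pathway median was 0.03 to 0.08 with single arrays left out. Called pathway genes numbered 9 to 15 in all settings. The causes of these shifts were not tested.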
